A study of Rattus norvegicus with 24 samples.

Results

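Arpc1b, which encodes a subunit of the actin-branching Arp2/3 complex, was followed through all 6 conditions of an RNA sequencing experiment on primary rat oligodendrocyte lineage cells. It was taken up by its gene identifier, ENSRNOG00000000991, and is 1 of 32883 genes in the count files. It was chosen by its count values in OLs treated with DMSO and with the drug, so comparisons that include either of these groups are described here without a p-value. Primary oligodendrocyte precursor cells (OPCs) from rat cortex were kept in proliferation medium for 24 hours, and oligodendrocytes (OLs) were kept for 24 hours in proliferation medium followed by 72 hours in differentiation medium. At each stage cells were left untreated, received DMSO vehicle at 0.04% throughout, or received 8 µM dolutegravir (DTG), an inhibitor of the HIV integrase, throughout. Per the study's methods, the cells came from neonatal Sprague Dawley pups and were purified by shaking them off mixed glial cultures, and replicates were cultures of independent litters. Each of the 6 groups held 4 libraries, and libraries of the same replicate number are called here cultures 1 to 4. Library names give cultures 2 and 3 the same date.

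The Arp2/3 complex binds the side of an actin filament and starts a new filament there, and so builds the branched networks that push membranes forward. It is switched on by proteins of the WASP and WAVE families, which act downstream of the small GTPases Cdc42 and Rac. One of its subunits exists in a pair of forms, ARPC1A and ARPC1B, and complexes that carry ARPC1B are known to build branches more efficiently. In cells of the oligodendrocyte lineage, branched actin drives the growth of processes and the start of axon ensheathment, and actin is taken apart later, when myelin membrane spreads and wraps. ARPC1B is also abundant in blood and immune cells.

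In the Rnor_6.0 coordinates of 22 of the files, Arpc1b lies on the minus strand of chromosome 12 from 11252296 to 11265865, and its reads were counted over 10 exonic blocks that sum to 1516 bases. For culture 3, the untreated libraries of both stages were counted with another annotation, in which Arpc1b has 11 blocks and 2809 exonic bases. A block of 1356 bases was added at the 3′ end, while block 1 had 76 bases in place of 84 and block 10 had 278 in place of 333. In that annotation 46 exonic bases also belong to the flanking gene ENSRNOG00000000990. The TMM-scaled group means and log2 fold changes of Arpc1b that rest on these 2 libraries are therefore given with and without them, and the ERCC-scaled and blocked values are given with them. The 250 bases before the start of Arpc1b in RefSeq's GRCr8 annotation (chr12:14609489-14609738, minus strand) are shown because Arpc1b RNA is started directly after such a stretch, with GC boxes in capitals (GGGCGG, or CCGCCC where the box is on the other strand).
Arpc1b: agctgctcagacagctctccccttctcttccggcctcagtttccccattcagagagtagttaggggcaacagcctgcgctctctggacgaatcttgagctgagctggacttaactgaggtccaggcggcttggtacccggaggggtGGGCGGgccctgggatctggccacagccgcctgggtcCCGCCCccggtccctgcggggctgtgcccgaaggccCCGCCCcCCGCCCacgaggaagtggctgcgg
The stretch is 67.6% G and C. It holds 1 GC box on the given strand and 3 on the other, and 30.47% of 33469 RefSeq windows of the same length before gene starts hold at least 1 on either strand. The letters TGATGNAA, shared by ATF4 and C/EBP elements, and the CArG box bound by serum response factor were also searched on both strands. Neither occurred in the window of Arpc1b, and they occurred in 3.4% and 1.5% of all windows.

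Arpc1b was deeply counted in every library. Genes took between 13241279 and 18499994 counts per library, and Arpc1b took between 1192 counts in DTG-treated OLs of culture 4 and 4528 in DMSO-treated OLs of culture 2. Counting error alone was between 1.49% and 2.9% of the value, while the SD across cultures was between 12.7% and 26.9% of the group mean. Levels are given below as CPM, the count of a gene scaled to the size of its library, after TMM scaling over all 24 libraries, and levels compared between genes are given per kilobase of exon (RPKM). Per length, Arpc1b ranked above 92.8% to 96.9% of the detected genes in the libraries of the other 5 groups that share an annotation. In DTG-treated OLs it ranked above 86.9% to 91.1%.

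In OPCs the level of Arpc1b lay between 103.5 and 162 CPM over all treatments. Untreated OPCs had 115, 126, 131 and 154 CPM in cultures 1 to 4. DMSO-treated OPCs had 111, 162, 144 and 158 CPM. DTG-treated OPCs had 103.5, 133, 159.5 and 149.5 CPM. The ranges of the 3 OPC groups overlapped throughout, and culture 1 was the lowest in each of them. Untreated and DMSO-treated OLs spread more widely in CPM. Untreated OLs had 212, 231, 251 and 134 CPM, and DMSO-treated OLs had 238, 342, 279 and 176 CPM. DTG-treated OLs had 102, 126, 125 and 74.4 CPM, and the highest of these lay below the lowest value of each of the other OL groups. Culture 4 was the lowest in each of the 3 OL groups, although it was not the lowest in any OPC group.

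**Figure D1:**
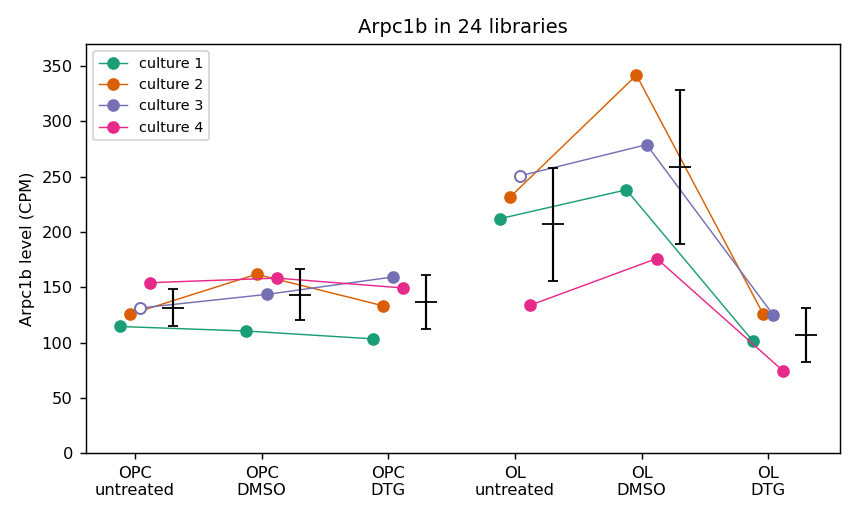
Arpc1b level (y axis, CPM after TMM scaling) in 24 libraries of 6 groups (x axis). Points are libraries, thin lines join the libraries of a culture within a stage, open points mark the 2 libraries counted with the other annotation, and the black marks are group means with the SD of 4 libraries. DTG-treated OLs sit between 74.4 and 126 CPM, and the other 2 OL groups sit between 134 and 342 CPM.

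Ordered by group mean, DMSO-treated OLs were highest with 259 ± 69.65 CPM (SD, n = 4), followed by untreated OLs with 207 ± 51.3 CPM. DMSO-treated OPCs had 144 ± 23.4 CPM, DTG-treated OPCs 136.5 ± 24.45 CPM and untreated OPCs 131.5 ± 16.7 CPM. DTG-treated OLs were lowest with 107 ± 24.4 CPM. Each group overlapped in range with the next lower one in this order, so no neighbours in the order were separated by more than their spread. Without the 2 libraries of the other annotation, untreated OLs had 192.5 ± 51.6 CPM and untreated OPCs 131.5 ± 20.4 CPM (SD, n = 3), and the order was the same. Per length and over libraries of the same annotation, the highest mean was 171 ± 45.9 RPKM in DMSO-treated OLs and the lowest was 70.45 ± 16.1 RPKM in DTG-treated OLs.

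The comparison of untreated OLs with untreated OPCs addresses the change of Arpc1b in differentiation without any addition. No library that served to choose the gene enters it. Its libraries share cultures with those that did, so it is not fully independent of the choice. Arpc1b was higher in OLs in 3 of 4 cultures, 1.85, 1.84 and 1.91 times in cultures 1 to 3, and was 0.868 of the OPC level in culture 4. Its log2 fold change was 0.64 (SE 0.21), with an adjusted p of 0.0401 (quasi-likelihood F test of edgeR, adjusted by Benjamini-Hochberg over 12158 genes; a gene passed the test at an adjusted p under 0.05). Of these genes, 17.9% passed as higher and 18.6% as lower, or 2179 and 2261 genes, and with scaling to the ERCC transcripts described below 361 passed as higher and 3241 as lower. With the culture as a block the log2 fold change was 0.62 (SE 0.26) and the adjusted p 0.0751, and the rise no longer passed the test (edgeR). Without the 2 libraries of the other annotation the log2 fold change was 0.54, with an adjusted p of 0.0731 (edgeR). That fit also used all identifiers of the remaining libraries in place of the shared ones. With no filter on low counts the log2 fold change was 0.65 and the adjusted p 0.0508 (edgeR), which did not pass. When each of the 8 libraries was left out in turn the test was passed in 2 of 8 fits, those without culture 4 of the OPCs (adjusted p 0.0417) and of the OLs (0.0101), and the highest adjusted p of the other fits was 0.108 (edgeR).

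With DMSO present throughout, Arpc1b was higher in OLs than in OPCs in 4 of 4 cultures. The ratios were 2.15, 2.11 and 1.94 in cultures 1 to 3 and 1.11 in culture 4. On the log2 scale this was a change of 0.86 (SE 0.22), against a median of -0.12 over the 13023 genes tested. These directions are relative to the other genes. Synthetic ERCC transcripts had been spiked in per amount of total RNA. When libraries were scaled to them, the median of all genes moved to -1.48 and Arpc1b to -0.53. The sign of Arpc1b thus turned, while it stayed 0.94 above the median gene. The ERCC share of counts itself varied between cultures, from 2.19% to 7.19% in DMSO-treated OLs and from 1.06% to 3.45% in DMSO-treated OPCs. In the untreated comparison ERCC scaling moved the median gene to -0.99 and Arpc1b to -0.35, which is 0.64 above the median. Arpc1b then had an adjusted p of 0.483 (edgeR) and did not pass the test. The spike-in was set by total RNA and not by the number of cells, so ERCC-scaled values give no amount per cell. For Arpc1b itself, fewer cells that carry it and less of its RNA per cell cannot be told apart in bulk RNA.

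Arpc1b was lower with DTG than with DMSO in OLs of all 4 cultures. In DTG-treated OLs it was at 0.426, 0.369, 0.449 and 0.422 of its level in DMSO-treated OLs in cultures 1 to 4. These ratios were close to each other although the levels themselves differed between cultures, and culture 4, lowest in both groups, had a ratio inside the range of the others. The log2 fold change was -1.28 (SE 0.21). Among the 12710 genes tested, 44 (0.346%) had a lower log2 fold change. Among the 722 genes with at least the per-length level of Arpc1b in DMSO-treated OLs, 3 had a lower one, which were Mbp and 2 genes without a symbol in the tables used here. These 3 were picked after their values were seen. Arpc1b was itself chosen by its values in these 2 groups, so its place in both rankings follows from that choice and nothing is read from it. ERCC scaling gave -0.9 with the median of all genes at 0.44, and leaving out each library in turn gave between -1.41 and -1.12.

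Against untreated OLs, DTG-treated OLs had 0.479, 0.545, 0.499 and 0.556 of the Arpc1b level in cultures 1 to 4. On the log2 scale this was -0.96 (SE 0.23), and it was -0.85 without the untreated library of the other annotation. DMSO-treated OLs were higher than untreated OLs in 4 of 4 cultures, 1.12, 1.48, 1.11 and 1.32 times, with a log2 fold change of 0.28 (SE 0.24). With the culture as a block it was 0.28 with an SE of 0.1, without the untreated library of the other annotation it was 0.38, and without single libraries it ran from 0.12 (without untreated culture 4) to 0.43 (without DMSO-treated culture 4). With ERCC scaling this last value was -0.03, with the median gene at -0.42. These comparisons share groups with each other and with that of DTG-treated and DMSO-treated OLs.

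**Figure D2:**
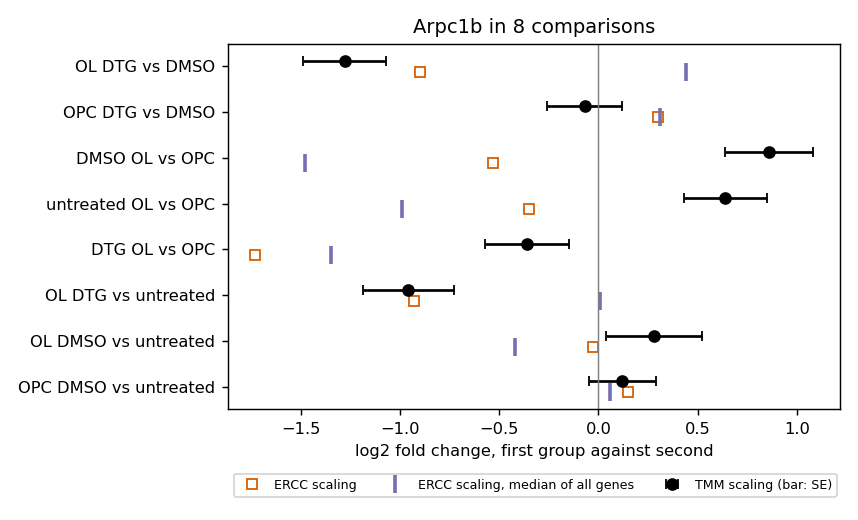
Log2 fold change of Arpc1b (x axis) in 8 comparisons (y axis). Black points with bars are TMM-scaled fits with their SE, open squares are ERCC-scaled fits, and violet ticks are the median of all genes under ERCC scaling. Arpc1b lies at -1.28 in DTG-treated against DMSO-treated OLs and at -0.07 in the same contrast in OPCs, and in both OL against OPC comparisons without DTG its square lies below 0 and above the tick.

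In OPCs, 24 hours of the same dose left Arpc1b at 0.936, 0.824, 1.11 and 0.944 of the DMSO level in cultures 1 to 4. The log2 fold change was -0.07 (SE 0.19), with an adjusted p of 0.933 (edgeR, over 13270 genes). An interval of 2 SE around it runs from -0.45 to 0.32. With ERCC scaling the value in OPCs was 0.3, with the median gene at 0.31. In this comparison 0 of 13270 genes (0.0%) passed the test, and 66 had an unadjusted p under 0.05. DMSO-treated against untreated OPCs gave a log2 fold change of 0.12 (SE 0.17), with an adjusted p of 1.0 (edgeR), and 0.15 without the untreated library of the other annotation, also with an adjusted p of 1.0 (edgeR). The log2 fold change in OLs minus that in OPCs was -1.18 (SE 0.31), which is given as a description. DTG was present for 24 hours in OPCs and for 72 hours more in OLs, so stage and length of exposure cannot be told apart.

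With DTG present at both stages, Arpc1b in OLs was at 0.981, 0.945, 0.785 and 0.498 of its OPC level in cultures 1 to 4. In culture 1 the difference was smaller than the counting error, 2.74% in the OL and 2.26% in the OPC library. The log2 fold change of Arpc1b was -0.36 (SE 0.21), against a median of -0.11 over all genes. It was -0.21 without DTG-treated OLs of culture 4, and with ERCC scaling it was -1.73 with the median gene at -1.35. Cultures 1 to 3, in which DMSO-treated OLs had between 1.94 and 2.15 times the OPC level, thus had between 0.785 and 0.981 of it with DTG.

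The labelled cell types could be checked with the markers that have a symbol here. Mbp, a main protein of compact myelin, was at 228 ± 72.3 CPM in OPCs and 8630 ± 3270 CPM in OLs with DMSO. Its log2 fold change was 5.25 (SE 0.39). That value is given without a test, since Mbp has its symbol from the study's table of genes changed with DTG. The same DMSO-treated OLs were the control for that table. Cspg4, the NG2 proteoglycan of OPCs, had 268 ± 48.4 CPM in OPCs and 47.8 ± 8.86 CPM in OLs with DMSO, a log2 fold change of -2.48 (SE 0.21) that is given without a test, since its symbol comes from the study's table of genes changed in this comparison. In this comparison 52.6% of genes passed the test in either direction, 3178 as higher and 3670 as lower, and with ERCC scaling 274 passed as higher and 6252 as lower. Mbp had 6850, 10100, 9420 and 3990 CPM in untreated OLs, 7680, 11800, 10600 and 4450 CPM in DMSO-treated OLs and 2490, 4370, 4480 and 1760 CPM in DTG-treated OLs of cultures 1 to 4. Culture 4 was the lowest in Mbp in each of these 3 groups, as it was in Arpc1b. It was also the lowest in Mbp in DMSO-treated OPCs, with 247, 317, 203 and 146 CPM, and in DTG-treated OPCs, with 183, 221, 206 and 108 CPM, where it was not the lowest in Arpc1b. The part of culture 4 in these levels was not tested.

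The 3 oligodendrocyte and myelin genes with a symbol, Mbp, Mog and Enpp6, have it from the study's table of genes changed with DTG, so their values with DTG in OLs are given as a description, with no test and no count. Mog, a protein of the outer myelin surface, had 47.8, 53.7, 49.9 and 35.6 CPM in DMSO-treated OLs and 27.6, 22.1, 22.1 and 21.1 CPM in DTG-treated OLs, and its log2 fold change was -1.01 (SE 0.16). Enpp6, a marker of newly forming OLs, had 94.5, 126.0, 112.0 and 50.2 CPM in DMSO-treated OLs and 35.9, 63.8, 57.2 and 24.3 CPM in DTG-treated OLs, with a log2 fold change of -1.08 (SE 0.31). That of Mbp was -1.40 (SE 0.33). The 2 groups did not overlap in Mog. They overlapped in Enpp6 and in Mbp, where culture 4 was the lowest in both groups.

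Immune cells carry Arpc1b, and primary cultures of this kind can hold microglia. Per the study's methods, microglia were first shaken off the flasks, before the overnight shaking that released the OPCs. Of 14 microglial and macrophage markers, Cd68, a lysosomal protein of macrophages, was the 1 with a symbol, at 0.326 ± 0.119 CPM in DMSO-treated and 0.446 ± 0.128 CPM in DTG-treated OLs. A list of 9 immune genes assembled from the available symbols summed to between 19.2 and 31.2 CPM in DMSO-treated OLs and between 17.9 and 35.2 CPM in DTG-treated OLs. Its most abundant gene in every OL library was Lyn, a kinase of the Src family, and at most 1 of the 9 genes had no count in an OL library. In OPCs the sum lay between 98.8 and 131 CPM. Most symbols come from a table of genes lower in DMSO-treated OLs than in OPCs. The direction of the sum between OPCs and OLs is therefore set by the source of the list, and nothing is read from it. The ranges of the sum overlapped between DMSO-treated and DTG-treated OLs. Genes chosen as low in these same DMSO-treated OLs tend to lie higher in any group set against them, so nothing is read from this overlap either. Of the 9 genes, 3 had enough counts to be tested with DTG in OLs. Lyn alone gave 21.8 of 31.2 CPM in DMSO-treated OLs of culture 1, and the part of immune cells in the level of Arpc1b was not tested. The other defining markers of microglia, and all markers listed for astrocytes and endothelial cells, had no symbol and were not analysed here.

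The partners of Arpc1b could be followed to a small extent, because symbols were available for few genes. Of 10 genes of the Arp2/3 complex 1, Arpc1b itself, had a symbol, and of 28 genes of its activators 1 had one. That gene, Abi2, a component of the WAVE regulatory complex, was at 34.1 ± 8.17 CPM in OLs with DMSO and 39.0 ± 5.43 CPM in OLs with DTG, and its log2 fold change was 0.19 (SE 0.19, adjusted p = 0.711, edgeR). None of 9 inhibitors and debranching factors had a symbol. Of 32 other actin filament genes 3 had one. Tmsb10, which holds actin monomers, had a log2 fold change of 0.03, and the formins Diaph1 and Diaph3, which build unbranched filaments, each had -0.14. None of these 3 passed the test (0 of 3, edgeR, with 0 at an unadjusted p under 0.05 and 0 with DESeq2). Of all 12710 genes tested 108 (0.85%) passed, with 1593 at an unadjusted p under 0.05, and 372 passed with DESeq2. Nothing is read from so small a count.

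Further lists were therefore assembled from the available symbols. On the side of Rac, Cdc42 and the WAVE complex, 9 genes were tested in OLs and 0 passed the test with DTG (0.85% of all genes tested passed, 67 as higher and 41 as lower, and 16 and 1 with ERCC scaling), with a median log2 fold change of 0.17 beside 0.01 for all genes. Their values ran from -0.04 for Iqgap1, a scaffold that binds Rac and Cdc42, to 0.55 for Vav3, an exchange factor for Rac. Of 17 actin filament and contractile genes 15 were tested and 0 passed, with a median of 0.06. Their values ran from -0.54 for Anln, the actin-binding protein anillin, to 0.85 for Myh9, a heavy chain of non-muscle myosin II (SE 0.39, adjusted p = 0.388, edgeR). Vcl, which links actin to adhesion sites, had 28.6, 35.9, 30.5 and 39.5 CPM in DMSO-treated OLs and 36.6, 37.0, 41.9 and 62.5 CPM in DTG-treated OLs, and its log2 fold change was 0.40 (SE 0.19, adjusted p = 0.4, edgeR). Of the 15 genes tested 3, Myh9, Cald1 and Vcl, were higher with DTG in 4 of 4 cultures (4 with levels scaled over 22 libraries) and 0 were lower in 4 of 4, and on the side of Rac and Cdc42 1 of 9, Snx9, was higher in 4 of 4. Of all 12710 genes 12.5% were higher and 13.3% lower in 4 of 4 cultures, and nothing is read from these small counts. At an unadjusted p under 0.05 the count was 0 of 9 and 1 of 15 genes, beside 1593 of all 12710. The culture block passed 0 in both lists and 624 of all genes, with 0 of 9 and 3 of 15 at an unadjusted p under 0.05 beside 2267 of all. DESeq2 also passed 0 in both lists and 372 of all genes, with 1 of 9 and 2 of 17 at an unadjusted p under 0.05 beside 1711 of all. In OPCs with DTG 0 of 9 and 0 of 17 passed, beside 0 of all 13270 genes. Most symbols come from a table of genes lower in DMSO-treated OLs than in OPCs, so the direction of these lists in differentiation is set by their source and is not given. The same DMSO-treated OLs serve as the control for DTG, and genes chosen as low in them tend to lie higher in any group set against them, so nothing is read from the sign of the medians or of single values of these lists with DTG in OLs.

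**Figure D3:**
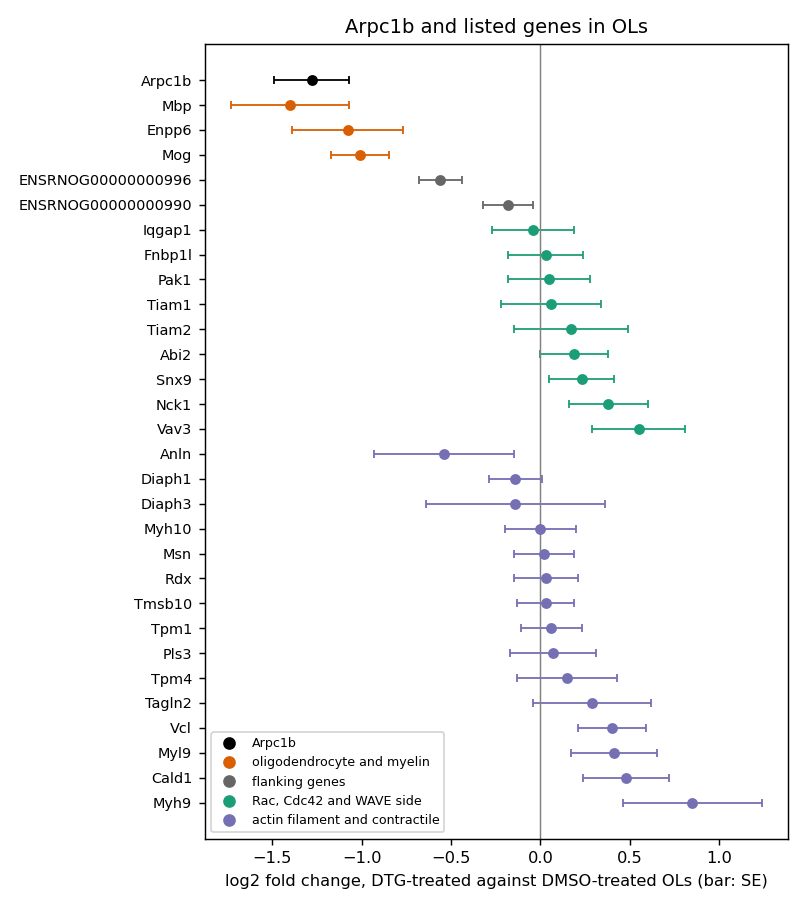
Log2 fold change in DTG-treated against DMSO-treated OLs (x axis, with SE) of Arpc1b, 3 oligodendrocyte and myelin genes, the 2 flanking genes and 24 tested genes of the assembled actin lists (y axis). Arpc1b lies at -1.28 beside the myelin genes at -1.40 to -1.01, and the actin genes lie between -0.54 and 0.85.

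The genes on either side of Arpc1b showed unlike patterns. The files do not pair their identifiers with a symbol. ENSRNOG00000000990, on the plus strand from 11240761 to 11251004, had 196, 192, 191 and 221 CPM in DMSO-treated OLs and 202, 157, 153 and 194 CPM in DTG-treated OLs, and its log2 fold change was -0.18 (SE 0.14, adjusted p = 0.612, edgeR). ENSRNOG00000000996, on the minus strand from 11272609 to 11294058, had 275, 327, 296 and 281 CPM in DMSO-treated OLs and 210.0, 214, 189 and 190.0 CPM in DTG-treated OLs. The 2 groups did not overlap, and the log2 fold change was -0.56 (SE 0.12, adjusted p = 0.0541, edgeR). With the culture as a block its adjusted p was 0.0113, past the test (edgeR), and with ERCC scaling it lay at -0.12 with the median gene at 0.44. In differentiation ENSRNOG00000000996 rose by a log2 fold change of 0.89 with DMSO (SE 0.19, adjusted p = 0.00208, edgeR), where Arpc1b was at 0.86, and by 0.71 without treatment (SE 0.17, adjusted p = 0.0116, edgeR), where Arpc1b was at 0.64. Without the 2 libraries of the other annotation, and with all identifiers, the latter value was 0.56 (SE 0.16, adjusted p = 0.02, edgeR). Under ERCC scaling these rises turned to -0.38 and -0.17, which is 1.09 and 0.82 above the median gene. With DTG it was still 0.49 higher in OLs than in OPCs (SE 0.16, adjusted p = 0.0179, edgeR), while Arpc1b was at -0.36, and with the culture as a block this rise did not pass (adjusted p 0.0582, edgeR). It passed in 6 of 8 fits that each left out a library, all but those without DTG-treated OPCs of culture 2 (highest adjusted p 0.0665) or of culture 3, and under ERCC scaling it turned to -0.75, which is 0.59 above the median gene. In DTG-treated OLs against OPCs 62.4% of genes passed the test, 3814 as higher and 4401 as lower, and with ERCC scaling 519 passed as higher and 8454 as lower.

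Likeness to Arpc1b was described over the 22 libraries of the same annotation, as Pearson's r of log2 CPM over libraries. These libraries belong to 6 groups and share cultures, so no p-value is given. Of 9027 genes with a mean log2 CPM above 3, 997 had a symbol, and the highest r of all genes was 0.84, for a gene without one. The symbols come from the study's tables of changed genes, and 10 of the 12 genes named for their likeness have theirs from its table of genes changed with DTG, so which genes could be named depends on that comparison. Among named genes the highest were Txnip, which binds thioredoxin and limits glucose uptake, with 0.73, and Pfkl, a phosphofructokinase of glycolysis, also with 0.73. Kndc1 followed with 0.71, Prickle1, a planar cell polarity gene, with 0.63, and Sdf2l1, a factor of protein folding in the endoplasmic reticulum, with 0.62. Among all genes, with or without a symbol, 3 had a higher r than Txnip, 4 than Pfkl, 7 than Kndc1, 47 than Prickle1 and 54 than Sdf2l1. The group means of Pfkl were 276 CPM in DMSO-treated OLs, 222 in untreated OLs, 119 in DTG-treated OLs and between 54.4 and 81.6 in the OPC groups, so that unlike Arpc1b it stayed above its OPC level with DTG. Txnip had 37.3 CPM in DMSO-treated and 4.93 in DTG-treated OLs. Among named genes the lowest r were those of Mthfd2, a mitochondrial enzyme of one-carbon metabolism, with -0.83 (the lowest of all genes was -0.89), of Slc38a1, a glutamine transporter, with -0.76 and of Ddr2, a collagen receptor, with -0.71. Mthfd2 had 16.1 CPM in DMSO-treated, 15.5 in untreated and 47.1 in DTG-treated OLs, and between 39.8 and 46.2 in the OPC groups. The 3 myelin genes had lower values, 0.49 for Mbp and 0.46 each for Mog and Enpp6, and ENSRNOG00000000996 had 0.66.

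After the mean of each group was removed, the named genes that varied most like Arpc1b between cultures were Cnksr3 with an r of 0.84, Kif19, a kinesin, with 0.81, Pfkl with 0.76, Adamts4, a protease of the extracellular matrix, with 0.75 and Hmga1, a chromatin protein, with 0.73. Prickle1 followed closely with 0.71 within groups, while Kndc1 had 0.66, Txnip 0.65 and Sdf2l1 0.07. Hmga1 had an r of -0.18 over all libraries, which includes the variation between cultures.

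**Figure D4:**
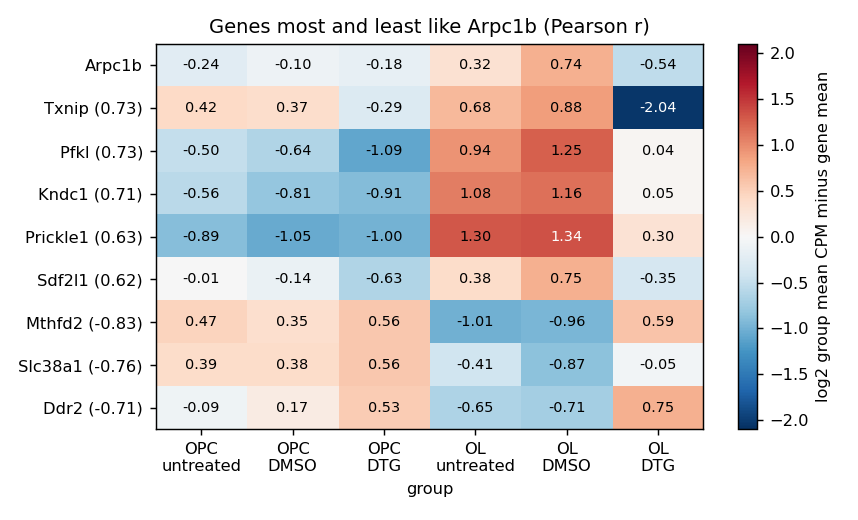
Group means of Arpc1b and of the named genes with the 5 highest and the 3 lowest Pearson r (in brackets, over 22 libraries), as log2 CPM minus the mean of the gene's 6 group means (colour and printed value). Arpc1b is highest in DMSO-treated OLs and lowest in DTG-treated OLs, and Mthfd2, at 47.1 CPM in DTG-treated and 16.1 CPM in DMSO-treated OLs, has the reverse order there.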

How the data were processed

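Per the labels and the study's methods, poly(A) RNA was sequenced, aligned with STAR 2.5.2b to Rnor_6.0 and counted with featureCounts (Subread 1.5.2). The authors deposited whole-number counts of uniquely mapped reads per gene and library, unnormalized, with 92 ERCC transcripts in the same files. The files of 2 untreated libraries follow another annotation (30560 genes), so comparisons with untreated cells used the 21651 shared identifiers, of which 20.9% had equal length. Symbols came from the study's tables of changed genes, of which the one on differentiation was used here only in part (1999 pairs), and 2107 identifiers had one in all. Of 135 members of the fixed gene lists 15 (11.1%) could thus be named.

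Each comparison used the 8 libraries of its groups in R 4.3.3 with edgeR 4.0.16, namely filterByExpr, TMM, a quasi-likelihood F test without covariates and Benjamini-Hochberg adjustment. ERCC counts were left out, and a gene passed the test at an adjusted p under 0.05. P-values rest on the spread between the 4 libraries of each group, drawn toward that of other genes. Outside the fits with the culture as a block, libraries of the same culture were treated as independent. SE is the log2 fold change divided by the square root of F. Levels in CPM were scaled over 24 libraries, or over the 22 of the same annotation for genes outside the shared identifiers. Alternatives were DESeq2 1.42.0, its size factors, ERCC scaling, TMM without mitochondrial genes, other filters, all groups in 1 fit, the culture as a block and leaving out libraries.

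Library names and methods give libraries of the same number a shared day or litter. The correlation of their deviations from group means was 0.43, 0.38, 0.4 and -0.01 between DMSO-treated and DTG-treated OLs, and 0.56, 0.28, 0.68 and 0.29 between untreated OLs and OPCs. It was 0.74, -0.12, 0.6 and 0.85 between DMSO-treated and DTG-treated OPCs, 0.41, 0.04, 0.1 and 0.53 between OLs and OPCs with DMSO, 0.36, -0.07, 0.08 and -0.38 between OLs and OPCs with DTG, and between 0.09 and 0.72 in the other comparisons. The gene, its lists and the tests were chosen with earlier results of these data known. The text names every Arp2/3 gene with a symbol, up to 4 genes per list past the test with the largest change, the flanking genes, and the 5 highest and 3 lowest correlations with Arpc1b. Values named beside these were chosen after they were seen. The fits were tested on simulated counts.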

Additional observations from a re-analysis of the deposited data

Results flagged for a closer look

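For 37 genes named in the report or counted in its lists, each group of 4 libraries was looked at, 218 groups in all. A library was singled out where its gap to the nearest other, divided by the range of the group, passed Dixon's 95% critical value, which chance does in about 1 in 20 groups, and this was so in 16 groups. No group was singled out for Arpc1b.

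In DTG-treated OLs the Mog level of culture 1, 27.6 CPM against 21.1 to 22.1 CPM in the others, gave a ratio of 0.843. In the same group the Myh9 level of culture 1, 5.09 CPM against 2.37 to 2.83 CPM, gave 0.831, and the Cd68 level of culture 2, 0.637 CPM against 0.374 to 0.389 CPM, gave 0.943. In DMSO-treated OLs Kif19 in culture 2 gave 0.964 and Diaph3 in culture 4 gave 0.833. In untreated OLs culture 4 stood apart in Cd14, a receptor of macrophages, with 0.881, in Vcl with 0.887 and in Kif19 with 0.845.

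Among OPCs, the library of the other annotation (untreated, culture 3) stood apart in Abi2, at 329.7 CPM against 73.96 to 89.3 CPM with a ratio of 0.94, in Vav3 with 0.844 and in Cald1 with 0.935. Dock8, an exchange factor of the immune list, was highest in culture 1 of all 3 OPC groups, with ratios of 0.831 without treatment, 0.951 under DMSO and 0.82902 under DTG. Slc38a1 in untreated OPCs of culture 1 gave 0.893, and Snx9 in DMSO-treated OPCs of culture 2 gave 0.887.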

How the results depend on the processing

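The log2 fold change of Arpc1b in DTG-treated against DMSO-treated OLs stayed between -1.28 and -0.9 in 9 alternatives, and between -0.96 and -0.85 against untreated OLs. ERCC scaling makes results relative to added RNA, and the ERCC share of counts itself varied between the cultures of a group. This scaling turned the sign of Arpc1b to -0.53 in DMSO-treated OLs against OPCs and to -0.35 in untreated OLs against OPCs. The sign also turned to -0.03 in DMSO-treated against untreated OLs and to 0.3 in DTG-treated against DMSO-treated OPCs. DTG-treated OLs against OPCs moved to -1.73. In untreated OLs against OPCs the call was lost with ERCC scaling (-0.35), with no filter on low counts (0.65) and with the replicate block (0.62). It was also lost without untreated replicate 3, in a fit that used all identifiers (0.54). Without single libraries the value ran from 0.53 to 0.81. The cause was not tested.

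The number of genes past the test in DTG-treated against DMSO-treated OLs, 108, became 372 with DESeq2, 17 with ERCC scaling, 180 with no filter, 624 with the replicate block and 29 without culture 4, an alternative added after seeing the data. It ran from 34 (without DMSO-treated culture 2) to 132 without single libraries. Against untreated OLs, 34 became 273 with DESeq2, 10 with ERCC scaling and 450 with the block, and ran from 5 to 50 without single libraries. In DMSO-treated against untreated OLs, 0 (871 at an unadjusted p under 0.05) became 1 with DESeq2 and 49 with ERCC scaling. For the difference of the DTG response between OLs and OPCs, 0 (366 at an unadjusted p under 0.05) became 4 with DESeq2. Of the 3 comparisons in which Arpc1b was tested, the block changed its call in untreated OLs against OPCs and not in DTG-treated against DMSO-treated OPCs (adjusted p 0.76, edgeR) or in DMSO-treated against untreated OPCs (0.998, edgeR). The share of Arpc1b in the sum with Arpc1a was not run, since Arpc1a has no identifier in the tables used here. Depth limits weakly counted genes such as Cd68 more than Arpc1b.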
